A study of Rattus norvegicus with 10 samples.

Results

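Of the stretches of open chromatin that every gastrocnemius library listed, a group was listed by some abdominal white adipose libraries and not by others, and these regions are described here. They were chosen by the deposited peak calls: the peaks of 10 ATAC-seq peak lists on chromosomes 1 to 20 were merged wherever they shared at least 1 bp, and a merged region was kept if all 5 muscle lists and 1 to 4 of the 5 adipose lists had a peak in it. This gave 29455 regions, 3.77% of the 781477 merged regions of all 10 lists and 8.92% of the 330041 regions found in at least 2 lists. They covered 22.9 Mb of the rat genome build rn6, with a median width of 722 bp and widths between 168 and 3042 bp.

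ATAC-seq uses a transposase to cut and tag DNA that is not packed into nucleosomes, so that a peak in sequenced fragments marks a stretch of accessible chromatin. The libraries, 5 of abdominal white adipose tissue and 5 of gastrocnemius muscle, were made from nuclei of untreated Fischer 344 rats whose labels give male sex and an age of 8 months. The submitters' design speaks of 9 samples per tissue, and the others were not analysed here. Tissue came from single animals or from pulverized material of 15 males, without a statement of which library was which, and each p-value therefore measures the spread between these libraries, which may in part be technical. The tissues were not sorted, so a peak can come from any cell type in them, and fewer cells of a type cannot be told apart from less open chromatin per cell.

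As background, promoters of genes that most cells use tend to be open in every tissue, whereas enhancers, which lie away from promoters and are bound by the transcription factors of a cell type, open in some tissues only. Gastrocnemius is a limb muscle made mostly of multinucleate fibres, and it also holds satellite cells, vessels, nerve and connective tissue. White adipose tissue stores lipid in large adipocytes, and between them lie vessels, fibroblast-like precursors and immune cells, so that many of its nuclei are not those of adipocytes. A region open throughout muscle and listed in part of the adipose libraries can thus be of many kinds. No gene annotation of rn6 was used, so regions are given by position, the tissue labels could not be checked against marker genes, and no gene is named.

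The adipose lists were not alike, and this bears on every count below. They ended at a lowest −log10 p between 3.26 and 4.27 and the muscle lists at 2.00, so a weak peak could be listed in muscle and fall below the end of an adipose list. Strong peaks, meaning those with a −log10 q of at least 5, numbered between 51780 (adipose replicate 1) and 92310 in adipose and between 87656 and 117335 in muscle. Adipose replicates 2, 3 and 4 had 0, 0 and 1 peaks on chromosome Y, against 31 and 45 in adipose replicates 1 and 5 and 16 to 24 in muscle. Chromosome X split them the same way, with 3.26%, 2.78% and 3.47% of the peaks in replicates 2, 3 and 4, 1.07% and 1.45% in replicates 1 and 5, and 1.41% to 1.74% in muscle. These values go against the male label of adipose replicates 2, 3 and 4, and whether these libraries came from the labelled animals was not tested. The lists hold no read totals, so the depth behind each of them is unknown. When adipose was reduced to replicates 1 and 5, 14846 regions of all muscle lists were in 1 of these 2 lists and not in the other.

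In the lists as deposited, about as many of the regions constant in muscle had 1 adipose list as had 4, and fewer had 2 or 3. The 88882 regions in all 5 muscle lists comprised 18757 in no adipose list (21.1%), 29455 in 1 to 4 (33.1%) and 40670 in all 5 (45.8%). Those in between numbered 8393 with 1 adipose list, 6095 with 2, 6309 with 3 and 8658 with 4. Their median widths were 665, 709, 735 and 774 bp in that order. On either side of the rule, regions with no adipose list had a median width of 578 bp and regions with all 5 had 1043 bp. The opposite kind, in all 5 adipose lists and in 1 to 4 muscle lists, numbered 12087. The balance between 1 and 4 adipose lists depended on where the lists end. With strong peaks only, regions with 1, 2, 3 and 4 adipose lists numbered 4434, 3807, 4290 and 6693. At a common −log10 p floor they numbered 6519, 4842, 5083 and 7695, and with the 50000 strongest peaks 2050, 1670, 1761 and 2536. In these settings more regions had 4 adipose lists than 1, and those with 2 or 3 were still fewer.

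Within the muscle libraries the strength of these regions hardly moved with the number of adipose lists. Strength is given as the percentile of a peak's fold enrichment over the caller's background among all peaks of its own list, taking the strongest peak of a library in the region. The fold is the authors' value. The median percentile in a muscle library was 66.9 ± 1.40 for regions with 1 adipose list, 66.4 ± 1.43 with 2, 65.8 ± 1.48 with 3 and 67.5 ± 1.63 with 4 (SD, n = 5 libraries). Regions in no adipose list had 66.2 ± 1.37, inside the same range, and regions in all 5 had 81.0 ± 1.51. In each of the 5 muscle libraries the medians for 1 to 4 adipose lists lay below the median for all 5. The calls chose the regions, so these values are a description and were not tested.

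**Figure D1:**
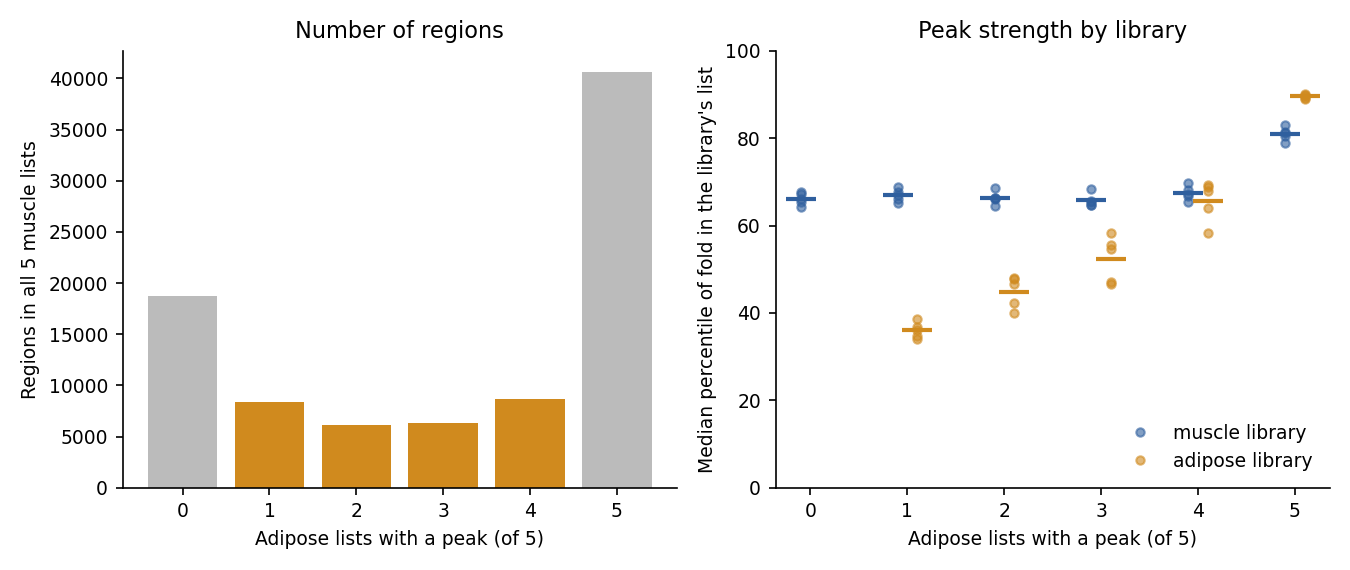
Left, regions in all 5 muscle lists (y axis, number) by the number of adipose lists with a peak (x axis), with the 4 bars of the regions described here in orange. Right, median percentile of fold enrichment in each library's own list (y axis) for the same classes, with 1 point per library and a dash at the mean of the libraries; muscle stays between means of 65.8 and 67.5 from 1 to 4 adipose lists and is 81.0 at 5, while adipose climbs from 36.0 to 89.6.

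The adipose peaks in these regions were stronger the more adipose lists had one. Their median percentile was 36.0 ± 1.78 in regions with 1 adipose list, 44.9 ± 3.59 with 2, 52.4 ± 5.29 with 3 and 65.7 ± 4.67 with 4, and it was 89.6 ± 0.516 in regions with all 5 (SD, n = 5 libraries). A region with a single adipose peak was thus listed, as a rule, below the middle of that list. The classes are counted from these same adipose calls, whereas all 5 muscle lists are required in every class. The rise in adipose and its contrast with muscle thus follow in part from the rule, and they were not tested. In adipose replicate 1 the order from 1 to 4 adipose lists was 36.8, 46.5, 46.5 and 58.2, and in adipose replicate 3 it was 34.0, 42.3, 54.5 and 69.2. The share of adipose peaks that were strong rose from 12.1 ± 4.46% with 1 list to 54.0 ± 16.2% with 4. Over all their peaks the adipose lists were strong in 32.5% of cases and the muscle lists in 57.0%. In the muscle libraries 82.8 ± 5.76% of the regions were strong.

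A part of the group was strong in muscle and without any strong peak in adipose. All 5 muscle libraries were strong in 18039 regions (61.2%), and 8271 of these (28.1% of the whole) had no strong adipose peak. This kind made up 4595 of the 8393 regions with 1 adipose list, 2157 of 6095 with 2, 1076 of 6309 with 3 and 443 of 8658 with 4. The other extreme, strong in all muscle libraries and in every adipose library that listed the region, had 651, 325, 395 and 1056 regions in the same order. Regions of the first kind thinned out as adipose lists were added, and those of the second were most numerous with 4. The thinning is in part built in, since each further adipose list is a further chance of a strong peak. On either side of the rule, all 5 muscle libraries were strong in 65.8% of regions with no adipose list and 82.5% of those with all 5.

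Stronger muscle regions were less often of the in-between kind. When all regions of the 5 muscle lists were ranked by their mean muscle percentile and cut into 10 equal groups, the share with 1 to 4 adipose lists was 44.0% in the weakest group, 45.8% in the next and 11.9% in the strongest. From the weakest to the strongest group the share in no adipose list went from 35.0% to 7.66% and that in all 5 from 21.04% to 80.5%. Among the 10 groups the share with 4 adipose lists was highest in group 3 from the weakest end, at 12.9%, and the share with 1 list in the weakest, at 13.9%.

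**Figure D2:**
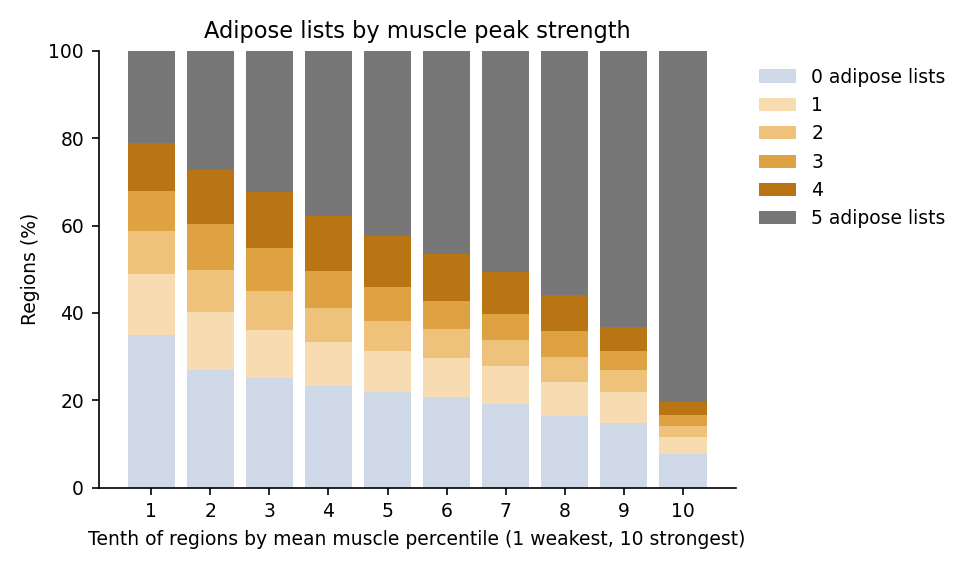
Regions in all 5 muscle lists ranked by mean muscle percentile and cut into 10 equal groups (x axis), with the share in each number of adipose lists (y axis, percent). The share with 1 to 4 adipose lists, in shades of orange, falls from 44.0% in the weakest group to 11.9% in the strongest.

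Among the strongest muscle regions of each class, some had weak adipose peaks and some had adipose peaks near the top of their own lists. On chromosome 11 at 83454632 to 83455538, with 1 adipose list, the fold enrichment was 23.2, 22.2, 23.8, 23.1 and 27.4 in muscle replicates 1 to 5 and 2.77 in adipose replicate 3. That adipose peak stood at percentile 28.2 of its list, whereas the lowest muscle percentile was 99.5. On chromosome 15 at 83601049 to 83601710, with 3 adipose lists, muscle had 28.5, 29.4, 31.1, 28.6 and 33.9, and adipose replicates 3, 4 and 5 had 4.48, 3.21 and 4.03. The muscle libraries lay close together in both regions, and no adipose value came near them. On chromosome 4 at 11024864 to 11025850, with 4 adipose lists, muscle had 23.4, 23.2, 26.8, 25.1 and 27.8, and adipose replicates 1, 2, 3 and 5 had 3.75, 4.12, 4.09 and 5.69. The first-ranked region with 4 adipose lists, on chromosome 5, and the first-ranked with 2, on chromosome 7, were of the other kind: 2 adipose libraries had folds of 26.96 and 27.9 in the former and 20.97 and 23.9 in the latter. All 5 are among the 3 regions of their class whose lowest percentile over the muscle lists was highest, and fold values of separate libraries are set side by side only as a description.

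In the middle of their class some regions had values of both tissues in the same range. On chromosome 17 at 43834048 to 43834504 muscle had 3.34, 3.27, 3.47, 3.79 and 4.63 and adipose replicates 2 and 5 had 3.43 and 4.70. On chromosome 1 at 137498006 to 137498572 muscle had 3.65, 4.67, 3.55, 3.79 and 5.94, and adipose replicates 1, 2, 4 and 5 had 3.00, 3.71, 3.05 and 4.03. The adipose values of both regions overlapped those of muscle. The middle regions with 1 adipose list were not of this kind. On chromosome 19 at 61366015 to 61366524, with adipose replicate 1 alone at 2.68, muscle had 4.72, 5.37, 3.97, 3.52 and 6.48, all above it. On chromosome 2 at 80687256 to 80688613 adipose replicate 1 had 2.38 and muscle had 3.43 to 5.00, again all above it. That adipose peak did not touch the longest stretch covered by all 5 muscle lists. Its summit lay 774 bp from the median muscle summit, so these folds belong to different places within 1 merged region.

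Some regions of the group ranked higher in adipose than in muscle. On chromosome 11 at 44154529 to 44155326, adipose replicate 5 alone had a peak, of fold 8.05 and at percentile 94.9 of its list, where muscle had 2.88, 3.00, 3.37, 2.45 and 2.64. No base of this region was covered by all 5 muscle lists. On chromosome 2 at 205103867 to 205104697, with 4 adipose lists, adipose replicates 2 to 5 had 7.26, 7.52, 6.45 and 7.10 and muscle had 6.53, 5.17, 6.75, 8.26 and 8.74. The adipose values lay within the muscle range there, and adipose replicate 1 had no peak.

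In most of the regions the adipose peak lay on the same stretch as the muscle peaks, and most often so where more adipose lists had one. A stretch covered by all 5 muscle lists was found in 28547 of the 29455 regions, and the other 908 had no base in common to all of them. Where a region had more than 1 such stretch, only the longest was taken as the common stretch. An adipose peak on a shorter one thus counted as off it. Among the 28547, no adipose peak touched the common stretch in 1982 (6.94%). This was so for 16.5% of the regions with 1 adipose list, 5.81% with 2, 2.53% with 3 and 1.64% with 4, and for 0.334% of the regions in all 10 lists. More adipose peaks give more chances that 1 of them touches the stretch, so this fall is in part built in. Counted for each adipose library that listed a region, the share on the stretch rose less steeply. It was 81.1% with 1 adipose list, 84.5% with 2, 87.2% with 3 and 90.3% with 4 (mean of 5 libraries). Regions without a common stretch counted there as off it. In the regions where no adipose peak touched the common stretch, the tissues were joined by the merging and not by peaks on that stretch. Whether such adipose peaks touched a shorter stretch of all muscle lists, or peaks of some muscle lists, was not counted. An example is chromosome 2 at 120376764 to 120377976, where the peaks of adipose replicates 3 and 5, of fold 2.85 and 2.97, missed the common stretch of muscle peaks with folds of 22.1, 20.4, 22.7, 21.4 and 28.2. Summit distances fell along the same series. For each region the distance from adipose summit to median muscle summit was taken as the median over the adipose libraries that listed it. The median of these values over regions was 81 bp with 1 adipose list, 78 bp with 2, 44 bp with 3 and 37 bp with 4. In regions with all 5 it was 23 bp. With more adipose lists the value of a region is a median of more distances, so this fall may be in part built in.

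The adipose libraries did not take equal parts in the group. Adipose replicate 3 listed 18786 of the regions (63.8%), replicate 2 listed 15953 (54.2%), replicate 5 listed 15630 (53.1%), replicate 4 listed 13164 (44.7%) and replicate 1 listed 10609 (36.0%). Adipose replicate 1, with the fewest strong peaks of the adipose libraries, had the longest list on these chromosomes, of 256339 peaks, and a strong peak in 18.0% of the regions it listed, against 43.4% to 48.9% in the other 4. Among regions with 4 adipose lists the missing library was replicate 1 in 3995 (46.1%), replicates 4 and 2 in 1610 and 1608 (18.6% each), replicate 5 in 986 (11.4%) and replicate 3 in 459 (5.30%). Regions listed in adipose alone did not show this slant to the same degree: among those in 4 adipose lists and no muscle list, replicate 1 was the missing one in 25.3% and replicate 3 in 21.2%. That depth or list length sets the order of the libraries was not tested.

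Among regions with 2 adipose lists, replicates 2 and 3 were the most frequent pair with 1349 regions (22.1%), and this pair had 10.7% of the regions with 2 adipose lists and no muscle list. Replicates 3 and 5 followed with 872 (14.3%), and replicates 1 and 5 had 691 (11.3%). The pair of replicates 1 and 4 was the least frequent, with 249 (4.09%), though it was the most frequent, at 13.1%, in regions without a muscle list. An equal split over the 10 pairs would give 10%. Among regions with 3 adipose lists, those with replicates 2, 3 and 4 had 1309 (20.7%) and those with replicates 2, 3 and 5 had 1268 (20.1%).

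**Figure D3:**
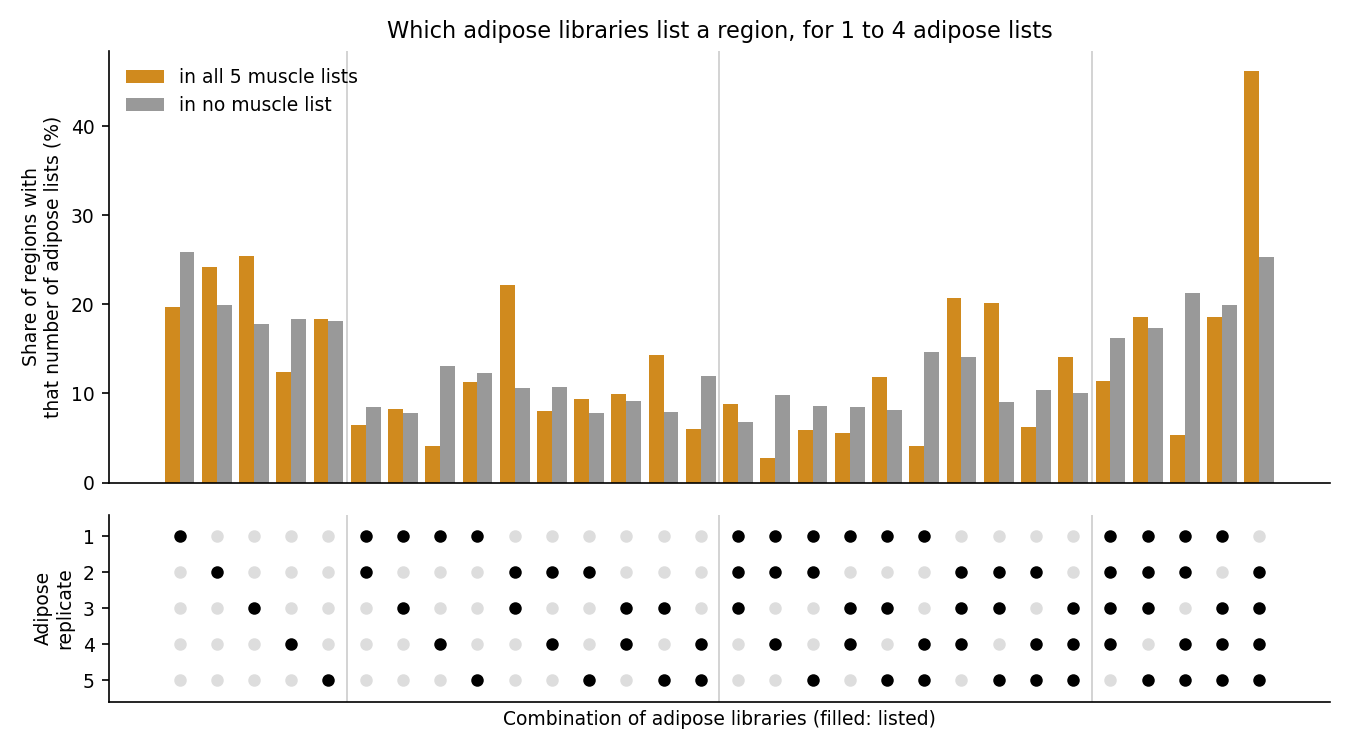
Share of regions (y axis, percent) for each combination of adipose libraries (x axis, filled dots below mark the libraries that list the region), within regions of 1, 2, 3 and 4 adipose lists. Orange bars are regions in all 5 muscle lists and grey bars regions in no muscle list; the tallest orange bar, at 46.1%, is that of regions missing in adipose replicate 1 alone.

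A small set of regions was near the top of the lists of adipose replicates 1 and 5 and not listed at all in replicates 2, 3 and 4. They came up because the regions named as strongest in adipose among those with 2 lists were both of this kind, and the count was made after their values were seen. Of the 691 regions with a peak in adipose replicates 1 and 5 alone, 15 (2.17%) were in the top 5% of both lists, and 4 of these were in the top 1%. None of the other 9 pairs of adipose libraries had a region in the top 5% of both its lists, and the other 29 combinations of 1 to 4 libraries had 3 such regions in all. At the top 10% the pair of replicates 1 and 5 had 31 regions and the other 9 pairs together 3. Regions in no muscle list had the same slant. Of the 9342 of them listed in replicates 1 and 5 alone, 5 were in the top 5% of both lists and 40 in the top 10%. The other 9 pairs together had 0 and 2. The pattern was thus not limited to regions constant in muscle, though 15 of 691 is a far larger share than 5 of 9342. In the top 1% of both lists were 0 of the 9342, against 4 of the 691. The 691 and the 9342 were not matched for width or peak strength, and the difference in share was not tested.

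On chromosome 7 at 10509076 to 10509611, fold enrichment was 20.97 and 23.9 in adipose replicates 1 and 5 and 40.3, 36.5, 41.6, 39.6 and 39.9 in muscle. On chromosome 14 at 46588347 to 46589133 it was 22.5 and 21.1 in these adipose libraries and 25.9, 19.9, 21.4, 24.4 and 27.9 in muscle. Both adipose values were below every muscle value in the first region and within the muscle range in the second. Neither region had any peak in the other 3 adipose lists. On chromosome 6 at 139318818 to 139319321 the adipose values, 26.2 and 22.7, lay above every muscle value, which were 16.9, 6.01, 10.1, 5.58 and 5.61.

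These 15 regions lay on 8 chromosomes, and some were close together. On chromosome 4 a stretch of 709 kb held 4 of them, starting at 170101374, 170125841, 170191575 and 170809458 and ending at 170102334, 170126818, 170192513 and 170810404. Their adipose folds were 9.24 and 12.8, 10.99 and 12.1, 9.99 and 14.2, and 11.98 and 13.8 in replicates 1 and 5, and their muscle means were 24.6 ± 2.30, 22.8 ± 2.37, 23.5 ± 2.89 and 22.4 ± 1.95 (SD, n = 5). A further 3 lay within 121 kb on chromosome 14, the one above among them, and a nearby region at 46670134 to 46671037 was listed in replicates 1, 2 and 5 with folds of 9.76, 9.68 and 9.12. In 6 of the 15 both adipose values were above every muscle value and in 6 both were below. A like split was seen on chromosome 5 at 91129103 to 91130169, where replicates 1 and 5 had 27.0 and 27.9, replicates 2 and 4 had 4.32 and 3.69, replicate 3 had no peak and muscle had 30.5, 30.2, 29.5, 25.8 and 28.0. Replicates 1 and 5 are also the adipose libraries with 31 and 45 peaks on chromosome Y, against 0 or 1 in the other 3, and the part of that in these regions was not tested.

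**Figure D4:**
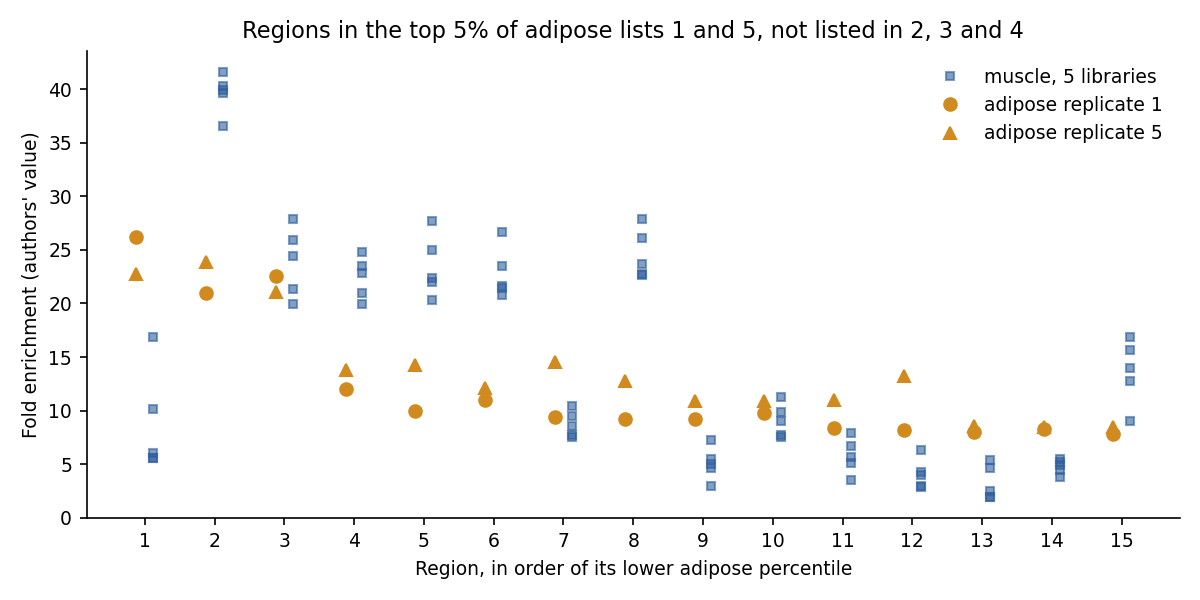
Fold enrichment (y axis, authors' value) in the 15 regions in the top 5% of adipose lists 1 and 5 and in no other adipose list (x axis, in order of the lower of both percentiles). Orange symbols are adipose replicates 1 and 5 and blue squares the 5 muscle libraries; the adipose values run from 7.86 to 26.2, and the muscle means from 3.29 to 39.6.

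To measure the calls in a library that had no part in choosing the regions, the regions were rebuilt from the other 9 lists and looked up in the one left out. Over all rebuilt regions a held-out adipose library listed 23.0% and a held-out muscle library 18.8%. Regions in all 5 muscle lists were listed in the held-out adipose library in 8.39 ± 2.00% of cases when none of the other 4 adipose lists had a peak. With 1, 2, 3 and 4 of them the share was 26.6 ± 6.55%, 50.6 ± 10.9%, 73.0 ± 11.9% and 96.0 ± 2.98% (SD, n = 5 held-out libraries). Each step was a rise in 5 of 5 libraries, by 18.2, 24.0, 22.4 and 23.0 percentage points on average, with a two-sided exact sign-flip permutation p of 0.0625 and the same Benjamini-Hochberg adjusted p over the 4 steps. This is the smallest p that 5 libraries allow, so no step could pass 0.05. The 5 differences are not independent, since each library also helps choose the regions for the other 4. The median width of the regions rose along the series as well, from 582 bp with 0 other adipose lists to 1014 bp with 4. A library that took no part in the choice thus listed more of the regions the more of the other adipose lists had them.

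The libraries differed widely along this series. With 2 other adipose lists the share was 36.8% in adipose replicate 1, 43.5% in replicate 4, 52.3% in replicate 5, 55.3% in replicate 2 and 65.0% in replicate 3. With 4 it lay between 91.1% (replicate 1) and 98.9% (replicate 3). The SD between libraries was highest with 3 other lists, and replicate 3 had the highest share at each of the 5 numbers of other lists.

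A peak in all muscle lists went with a higher share in the held-out adipose library. With 1, 2, 3 and 4 of the other adipose lists, regions in no muscle list were found in 10.5 ± 1.12%, 26.3 ± 2.48%, 46.1 ± 3.61% and 71.4 ± 3.57% of cases (SD, n = 5), which is 16.1, 24.3, 26.9 and 24.6 percentage points less than regions in all 5 muscle lists. The share was the higher one for muscle regions in 5 of 5 libraries at each number (two-sided exact sign-flip permutation p = 0.0625 each, adjusted p = 0.0625 over 4 comparisons). The regions differed in width too, with medians of 670 and 200 bp at 1 other list and 1014 and 606 bp at 4. With the 50000 strongest peaks of each list the differences fell to 14.1, 14.6, 15.1 and 15.0 percentage points, still in the same direction. With every peak replaced by 500 bp around its summit the differences were 14.1, 22.8, 26.9 and 25.0 percentage points. Without adipose replicate 1 they were 21.6, 31.7 and 32.6 percentage points at 1, 2 and 3 of the other 3 adipose lists, with an adjusted exact permutation p of 0.125, the smallest that 4 libraries allow. With adipose replicates 1 and 5 alone the difference was 64.5 percentage points at 1 other list. There 1 other list is the only other one, so this value cannot be set against the 16.1 percentage points above.

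**Figure D5:**
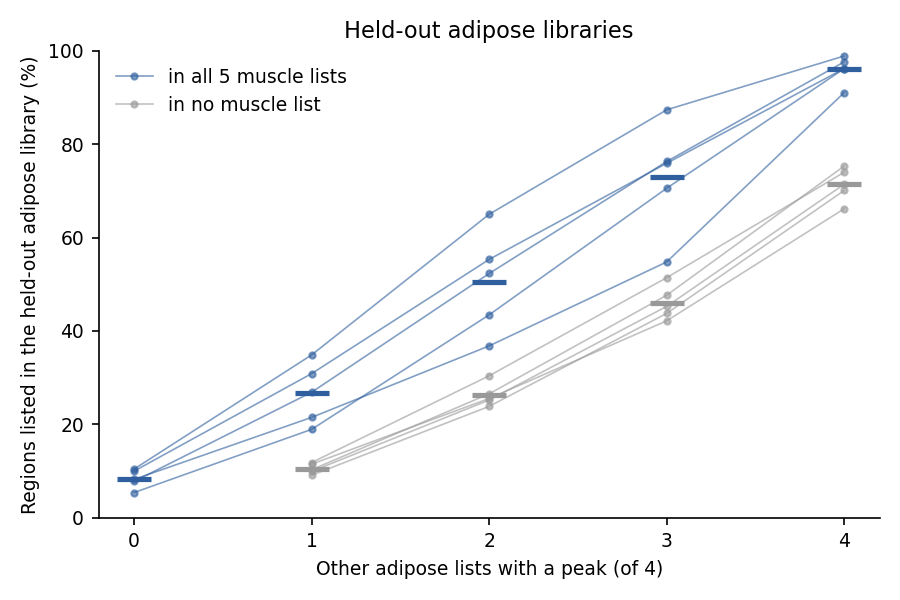
Share of regions listed in a held-out adipose library (y axis, percent) by the number of the other 4 adipose lists with a peak (x axis). Lines are the 5 held-out libraries and dashes their means; the blue lines of regions in all 5 muscle lists run from 8.39% to 96.0% on average and lie above the grey lines of regions in no muscle list.

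In muscle most of the regions were also listed by a library left out. Regions in the other 4 muscle lists and in 1 to 4 adipose lists were listed in the held-out muscle library in 94.0 ± 2.14% of cases (SD, n = 5, lowest 91.2% in muscle replicate 2). For regions in no adipose list the share was 93.2 ± 2.36%, and the difference of 0.760 percentage points ranged from -4.31 (muscle replicate 2) to 3.32 and was above 0 in 4 of 5 libraries (two-sided exact sign-flip permutation p = 0.625, adjusted p = 0.625). Without muscle replicate 2 it was 1.79 percentage points. For regions in all 5 adipose lists it was 98.1 ± 1.78%. The regions in 1 to 4 adipose lists lay below them by a difference of -4.11 percentage points, with -5.42 to -2.91 over the 5 libraries (two-sided exact sign-flip permutation p = 0.0625, adjusted p = 0.125 over 2 comparisons). Without muscle replicate 2 this difference was -6.33 percentage points.

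Along the genome the in-between regions followed the regions constant in muscle, and since they are a part of these, this is in part built in. They made up between 30.2% (chromosome 10) and 35.6% (chromosome 6) of the regions in all 5 muscle lists of a chromosome. As a share of all regions in at least 2 lists they varied more, from 6.81% on chromosome 2 to 13.2% on chromosome 12, and so did the regions constant in muscle as a whole, from 19.5% on chromosome 2 to 42.9% on chromosome 10. The mean number of adipose lists per region lay between 2.43 and 2.62 on every chromosome. Adipose replicate 1 listed the smallest share of the regions, and replicate 3 the largest, on each of the 20 chromosomes.

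From 1 to 4 adipose lists, the distance to muscle-only regions grew and the distance to regions in all 10 lists shrank. The median distance to the nearest region in all 5 muscle lists and no adipose list was 15.7, 19.5, 24.1 and 27.6 kb for 1, 2, 3 and 4 adipose lists, and 12.6 and 33.0 kb for 0 and 5. The median distance to the nearest region in all 10 lists went the other way, at 12.9, 11.6, 10.7 and 10.1 kb, and it was 11.6 and 9.54 kb for 0 and 5. Regions with 0 adipose lists thus lay nearer to regions in all 10 lists than regions with 1 did. Regions in at least 2 lists but not in all muscle lists were farther from muscle-only regions and from regions in all 10 lists, at 105 and 33.8 kb. Within 5 kb of another in-between region lay 26.7% of the group, against 30.1% of the regions in all muscle and no adipose lists, 19.9% of those in all 10 lists and 13.5% of the other regions in at least 2 lists. Neighbouring regions share their stretch of the genome, and these distances were not tested.

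The group was spread over 11719 of the 25798 windows of 100 kb that held any region, with a median of 2 and at most 14 in a window. There were 1556 windows with 5 or more, which held 31.8% of the group. Of the 5 fullest, 3 lay on chromosome 1, starting at 25700001 with 14 regions, 153900001 with 14 and 267200001 with 12. Another with 14 started at 86300001 on chromosome 15, and one with 13 at 43500001 on chromosome 12. A window on chromosome 8 from 71900001 also had 12 and came later in position. The first had 1 region in no adipose list and none in all 10, and 12 of its 14 in-between regions had no strong adipose peak, although 3 were strong in every muscle library. In the window on chromosome 15, 11 of 14 were strong in every muscle library, and adipose replicates 1 and 2 listed 2 and 10 of them. In the window on chromosome 1 from 267200001, 8 of the 12 regions had 1 adipose list and 1 had 4. Adipose replicates 1, 2 and 3 listed 5 each there and replicates 4 and 5 listed 2 each.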

How the data were processed

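The data were 10 peak lists in narrowPeak layout, 1 per library, from the authors. Per the submitters' processing notes the tools were MACS2, Bowtie2, Trimmomatic, Picard and FastQC, with no version given, on build rn6. Transposase shifting, duplicates and mitochondrial reads are not given in the sources used here. Each deposited row has a score derived from the p-value, which was not used, a fold enrichment (a ratio over background), and a −log10 p and −log10 q, all by the authors. Rows sharing an interval were joined, with the highest value kept. Lists differ in threshold, and a missing peak is not closed chromatin.

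The regions and lists were chosen with earlier results of these data known. Counts and strengths come from the calls that chose the regions and carry no test. Held-out libraries were compared with two-sided exact sign-flip permutation tests with Benjamini-Hochberg adjustment. Each library also helps choose the regions for the others, so the values of held-out libraries are not independent. Named regions, per number of adipose lists, were chosen by rule: the 3 with the highest worst muscle percentile, the 2 nearest the median, the 2 with the highest worst adipose percentile, and the 5 fullest windows; a part of them is described. Alternatives were a −log10 q of at least 5, a common −log10 p floor, the 50000 strongest peaks, peaks covering at least 50% of the region, intervals of 500 bp centred on summits, and each library left out in turn. Sequence, motif and gene content were planned and not run, since they need a genome of rn6. The code was tested on simulated data and returned 600 of 600 planted regions. Python 3.11.15, NumPy 2.4.6, pandas 2.3.3, SciPy 1.17.1 and matplotlib 3.10.9 were used.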

Additional observations from a re-analysis of the deposited data

Results flagged for a closer look

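In 64 sets of 5 libraries the highest and the lowest value were compared with their nearest neighbour, and in 7 the gap was over 0.71 of the whole range. Chance alone sets off about 1 in 20 such sets. The sets reuse the same libraries on related measures and are not independent, so the number flagged cannot be set against that share. Adipose replicate 1 gave 5 of the 7. It had the most peaks (256339) and the fewest strong peaks (51780) of the adipose lists. Its share of strong peaks was the lowest in the regions described (18.0%) and in those with 4 adipose lists (26.1%). Its peak width, summed over its peaks in a region, was the smallest over all the regions described (median 262 bp). In these regions the median fold enrichment of muscle replicate 5, 6.06, was far above that of the other muscle libraries, and muscle replicate 1 had the highest median percentile, 68.3, in regions with 3 adipose lists.

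Chromosome X was outside the regions described. It held 498 regions in all 5 muscle lists and 1 to 4 adipose lists, 30.5% of its 1632 regions in all 5 muscle lists. Adipose replicates 1 to 5 listed 21.9%, 66.9%, 71.7%, 53.0% and 50.4% of the 498.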

How the results depend on the processing

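No paired analysis was possible because no test compares the tissues: the titles give both tissues the rat numbers 1 to 5, without saying that these are the same animals, and each test is a difference within a held-out library of 1 tissue. The number of regions was 19224 at a −log10 q of at least 5, 8017 with the 50000 strongest peaks, 17180 where peaks had to cover at least 50% of the region, and 23848 to 32296 with single libraries left out. Chosen after seeing the data were adipose replicates 1 and 5 alone (14846) and strong peaks without adipose replicate 1 (14190). The median muscle percentile was 58.8 for strong peaks, 62.3 at the common floor of 4.27 and 49.0 for the 50000 strongest, and 64.5 to 66.9 with single libraries left out. The adipose percentile was 44.0 for strong peaks, 37.0 for the 50000 strongest and 47.9 for adipose replicates 1 and 5 alone. The muscle peak width, summed over the peaks of a library in a region, had a median of 459 bp as deposited. It was 553.6 bp for strong peaks, 493.4 bp at the floor and 662 bp for the 50000 strongest. With single libraries left out it was 426.75 to 459.4 bp. Adipose peaks lay on the stretch common to muscle in 87.5% of cases as deposited, 95.1%, 91.0% and 96.5% in these 3 settings and 84.3% for adipose replicates 1 and 5 alone. Lists made shorter rank the same peaks lower by construction. The muscle percentiles of regions with 1 to 4 adipose lists stayed between 57.2 and 60.8 for strong peaks, between 61.1 and 63.0 at the floor and between 48.0 and 51.0 for the 50000 strongest, with 79.7, 78.3 and 74.1 for all 5. The differences in held-out libraries kept their direction in each setting run, with 1 exception, but not their size. At 3 other adipose lists, the difference between regions in all and in no muscle list was 26.9 percentage points as deposited. It was 15.1 with the 50000 strongest peaks. With adipose replicates 1 and 5 alone, 1 against 0 other adipose lists gave 65.6 percentage points. There 1 other list is the only other one, so the value cannot be set against the 18.2 of all 5 libraries. The exception in direction was the difference between regions in some and in no adipose list in held-out muscle. It was -0.132 percentage points for strong peaks without adipose replicate 1, and the cause was not tested. The lists give no read counts, so a missing peak near the end of a list cannot be told from a weak one.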
